A study of Mus musculus with 2 samples.

Results

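The 9 transcription factor genes described here, in mouse hippocampus, are of the basic helix-loop-helix (bHLH) class: Neurod1, Neurod2, Neurod6, Bhlhe22, Bhlhe40, Bhlhe41, Tcf3, Tcf4 and Tcf12. They were taken by name and are 9 of 21853 protein-coding genes of GENCODE M21. No measured value was a criterion, but the choice was made with earlier results of these data known. In DNase-seq, DNase I cuts DNA that is free of nucleosomes and the ends are sequenced, which shows where chromatin is open. Accessible sites appear as peaks, and short stretches inside them that bound protein shields from cutting appear as footprints. The tissue is labelled a layer of hippocampus in 1 field and hippocampus in another, from female 2-month-old B6CASTF1/J mice, a first-generation cross of the C57BL/6J and CAST/EiJ strains. There was 1 group of 2 libraries, biological replicates 1 and 2, with no treatment or other genotype, so every comparison is between libraries, between genes, or between these genes and the rest of the genome. Both libraries carry 1 donor record, and the labels do not say whether they came from separate animals, so the spread between them may be technical.

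bHLH factors bind DNA as dimers at the E-box, the 6 bases CANNTG, and the middle bases set which dimers prefer a site. Neurod1, Neurod2 and Neurod6 are neuronal activators that pair with a broadly expressed E protein and favour CAGATG, called the Neurod E-box here; Neurod1 acts in dentate granule neurons, and Neurod2 and Neurod6 in maturing and adult pyramidal neurons. The E proteins are Tcf3 (also called E2A, not to be taken for Tcf7l1), Tcf4 (E2-2, not Tcf7l2) and Tcf12 (HEB), which favour CAGGTG. Bhlhe22 is a neuronal repressor of the Olig-related branch, and Bhlhe40 and Bhlhe41 are repressors at CACGTG that are tied to activity and to the circadian clock.

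A locus was the gene body plus 50 kb on each side. The 9 loci held 145 peaks in replicate 1 and 101 in replicate 2, of 129779 and 71895 in the longer deposited peak lists. Peaks covered 24.5 Mb and 14.6 Mb of the genome, with a median width of 196 bp and 200 bp, and replicate 1 had 227153 footprints against 118610 in replicate 2. Replicate 1 therefore lists more of everything, and absence from the lists of replicate 2 does not show that a site was closed there. Peak values are the authors' signal, scaled within each library to a unit that is not stated; 1 step of the scale was 0.00884 in replicate 1 and 0.0103 in replicate 2; the read depth is not known.

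The loci held 46 E-boxes that lay in a footprint of at least 1 library, counting a footprint with 5 bp on either side, and 14 of them lay in footprints of both libraries. That is 30.4% (95% Wilson interval 19.1 to 44.8, counting error only), beside 20.0% of all footprinted E-boxes of the genome. These 14 came from 8 of the 9 genes, all but Bhlhe22, and 45.3% of all protein-coding genes had such an E-box in a locus drawn the same way. The loci of Tcf4 and Tcf12 span 445.7 and 369.2 kb, and the other 7 span 103.3 to 124.1 kb. The 12 that are shown are those outside the Tcf4 locus. Each is printed with the union of its footprints in the 2 libraries and 5 bp on either side (for Neurod6 and for Bhlhe41 at 1.51 kb, only the bases that complete the E-box were added), from the RefSeq GRCm38.p6 assembly, forward strand, 5′ to 3′, with the E-box in capitals. Distances run from the nearest TSS of the gene to the E-box, with minus signs for upstream.
Neurod1, -42.7 kb (chr2:79499461-79499484): tttctaaagctgagCACGTGgcgc
Neurod2, -13.1 kb (chr11:98342732-98342766): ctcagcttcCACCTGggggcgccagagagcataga
Neurod2, -15.8 kb (chr11:98345435-98345462): ctggccgattccgcCACCTGctggccgt
Neurod6, 5′ untranslated exon (chr6:55681134-55681159): CATCTGctagtgacgtcacagggcag
Bhlhe40, -1.18 kb (chr6:108659434-108659453): cgtccgggcCACGTGaagcg
Bhlhe40, 49.2 kb (chr6:108710047-108710069): tCAGCTGgtgccaaggaaaccgc
Bhlhe41, 9.50 kb (chr6:145855771-145855809): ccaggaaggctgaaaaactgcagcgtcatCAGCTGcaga
Bhlhe41, 9.44 kb (chr6:145855838-145855880): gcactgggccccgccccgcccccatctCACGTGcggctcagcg
Bhlhe41, 1.51 kb (chr6:145863774-145863793): ccgcggcgttaagaCATCTG
Tcf3, intron (chr10:80413404-80413446): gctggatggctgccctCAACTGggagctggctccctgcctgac
Tcf3, promoter (chr10:80433675-80433701): ccacgccccCAAGTGaccacgcccact
Tcf12, 89.5 kb (chr9:71806606-71806641): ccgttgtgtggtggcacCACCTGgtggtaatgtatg

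On these lines CATCTG is the reverse complement of CAGATG, and CACCTG that of CAGGTG. Of the 14 shared E-boxes, 3 were CACGTG, 3 CAGGTG, 2 CAGATG, 2 CAGCTG, 1 CATATG and 3 of other middles. The footprints over them measured 7 to 33 bp. The E-boxes of Neurod2 and Tcf12, and the CATATG of Tcf4, lay wholly in footprints of both libraries without the added 5 bp. So did those of Bhlhe40 at -1.18 kb and Bhlhe41 at 9.44 kb. The others are weaker cases, only partly inside the footprint of at least 1 library. Among these, the Bhlhe40 E-box at 49.2 kb lay outside any listed replicate 1 peak. In the 2 Tcf3 entries the footprints of the 2 libraries lay side by side without overlapping each other, and the one at the promoter lay outside any listed peak. Other motifs were looked for on both strands after these letters were seen. The core of the CTCF consensus covered the E-box of the Neurod2 footprint at -15.8 kb; 1.91% of all replicate 1 footprints and 2.34% of all replicate 2 footprints held that core. The replicate 1 footprint of Neurod6 also held the cyclic AMP response element TGACGTCA beside its E-box. The shorter replicate 2 footprint did not hold the whole element, even with its added 5 bp. That sequence was in 0.334% of all replicate 1 footprints and 0.457% of all replicate 2 footprints. The Bhlhe41 footprint at 9.44 kb held GC boxes (GGGCGG on the reverse strand), found in 5.65% and 7.55% of all footprints. A match describes letters and does not show which protein was bound.

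All 9 genes had an accessible promoter in both libraries, by peaks that overlapped each other. A promoter was 1 kb on either side of a protein-coding TSS. Among all protein-coding genes, 59.0% had such peaks in both, 58.5% by overlapping peaks, 63.4% in replicate 1 and 60.4% in replicate 2. The promoters ranged widely in strength. The highest peak in the promoter was below the median of all genes with a promoter peak (3.10 in replicate 1 and 2.78 in replicate 2) for Neurod1, Neurod6, Bhlhe22, Bhlhe41 and Tcf12 in both libraries. Bhlhe40, Tcf3 and Tcf4 were above it in both, and Neurod2 lay above it in replicate 1 and just below in replicate 2.

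**Figure D1:**
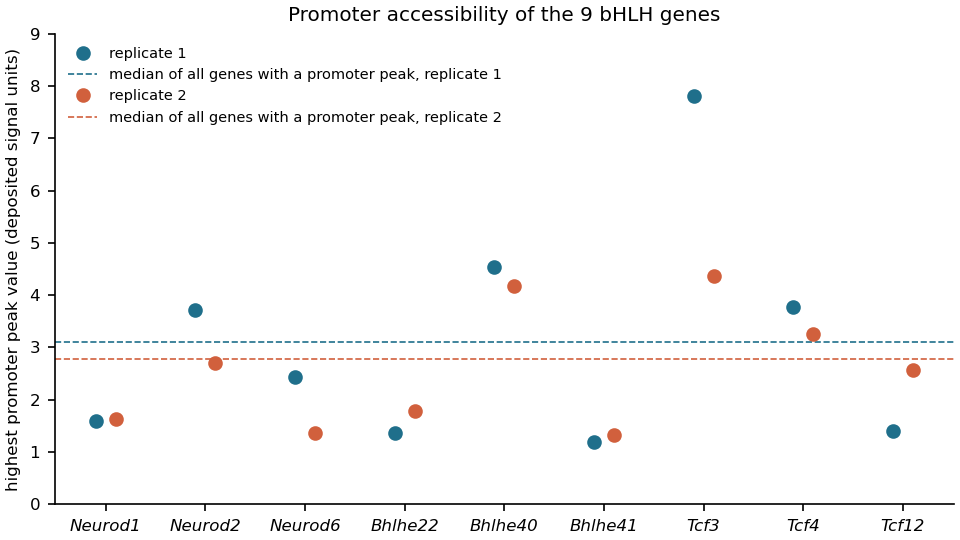
Highest promoter peak value (deposited signal units, vertical axis) of each of the 9 genes; each point is 1 library, and dashed lines are the medians of all genes with a promoter peak, 3.10 in replicate 1 and 2.78 in replicate 2. Tcf3 stands highest, at 7.81 and 4.36, and Bhlhe41 is lowest in both libraries, at 1.18 and 1.33.

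Neurod1, the granule neuron factor (ENSMUSG00000034701.9, chr2:79452521-79456751, reverse strand, GRCm38), had a promoter value of 1.58 in replicate 1 and 1.63 in replicate 2, a mean of 1.61 ± 0.0335 (SD, n = 2). Of genes with a promoter peak, 28.0% and 27.5% had a lower value. The libraries thus gave nearly the same value, although all genes together stood a median 1.23 times higher in replicate 1. Replicate 2 had a 400 bp peak over the TSS with 4 footprints, and replicate 1 a 220 bp peak with 1. Around the gene lay 10 and 8 peaks, and 4 shared distal peaks, meaning peaks outside 1 kb of every protein-coding TSS that overlapped between libraries. Of these 4, 3 lay inside the gene, at 2.37 kb (0.769 and 1.04), 1.68 kb (0.363 and 0.753) and 1.45 kb (0.442 and 0.980), all with higher values in replicate 2. The strongest lay at -42.7 kb at 1.78 and 1.44, above the promoter value in replicate 1 and below it in replicate 2, and holds the CACGTG footprint printed above. The gene models of Cerkl and of the noncoding Gm26755 overlap Neurod1, so its intragenic peaks are not of 1 gene alone.

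Neurod2, a factor of maturing pyramidal neurons (ENSMUSG00000038255.6, chr11:98325415-98329648, reverse strand), had promoter values of 3.72 and 2.69, a mean of 3.21 ± 0.728 (SD, n = 2). The peak spanned the same 220 bp in both libraries. It was not the strongest site of its locus: a 240 bp intergenic peak at -13.1 kb reached 4.21 and 4.74, above the promoter in each library, and its borders were identical in the 2 libraries. The second strongest distal site, 15.7 kb downstream of the TSS, had 2.78 and 3.51. In all, 8 distal peaks of replicate 1 had a replicate 2 partner (they met 7 replicate 2 peaks, 1 of which overlapped 2 of them), and 97.2% of 14284 genes of like locus length had fewer, counted the same way (median 2). The weakest of the 8, at 45.2 kb, had 0.814 and 0.815. Every one of the 11 replicate 2 peaks had a partner in replicate 1, while 12 of 24 replicate 1 peaks had one. The strongest distal peak of replicate 1 alone had 1.63, at 33.2 kb. The locus also holds the promoters of Ppp1r1b and Stard3, so a distal peak there is not assigned to Neurod2 by these data.

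These 2 sequences of the Neurod2 locus are printed because they are its strongest site by mean value and its promoter. The first is the whole -13.1 kb peak, forward strand, and the second, which covers most but not all of the promoter peak, is the promoter in the RefSeq table (GRCm38.p6), reverse strand, 250 bases before to 50 after the start; E-boxes are in capitals.
Neurod2 distal peak (chr11:98342661-98342900): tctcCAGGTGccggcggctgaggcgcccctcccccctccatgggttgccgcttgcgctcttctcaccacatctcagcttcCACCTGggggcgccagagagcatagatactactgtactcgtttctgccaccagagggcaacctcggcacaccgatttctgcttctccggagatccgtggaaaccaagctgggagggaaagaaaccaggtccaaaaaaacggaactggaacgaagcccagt
Neurod2 promoter (chr11:98329596-98329895): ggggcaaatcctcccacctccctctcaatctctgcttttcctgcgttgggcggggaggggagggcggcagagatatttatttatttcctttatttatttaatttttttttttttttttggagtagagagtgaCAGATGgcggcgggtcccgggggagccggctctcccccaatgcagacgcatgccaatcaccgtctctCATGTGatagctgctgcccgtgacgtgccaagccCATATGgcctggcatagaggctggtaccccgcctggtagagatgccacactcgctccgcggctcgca
The distal peak has a CAGGTG at its left edge and, in reverse complement as CACCTG, 1 more, which is the footprinted one. CAGGTG was present in 12.4% of the 50195 replicate 1 peaks of 200 to 260 bp. A match to the core of the CTCF consensus starts at base 98342787, outside the E-box footprint, and 4.65% of those peaks held one. Its first base was nevertheless footprinted in both libraries. Replicate 1 lists a separate 24 bp footprint over it, and replicate 2 has one of 20 bp there. The promoter has 3 E-boxes: first the Neurod E-box CAGATG, then one with TG in the middle, then CATATG, the last 2 within the accessible 220 bp. Of all RefSeq promoter windows of that length 17.2% held CAGATG and 3.91% CATATG. In replicate 1 the CATATG lay in a 26 bp footprint centred 14 bp before the TSS, and the CAGATG, across the edge of the peak, was reached by a 7 bp footprint with its added 5 bp; neither was footprinted in replicate 2.

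Neurod6, a marker of excitatory pyramidal neurons (ENSMUSG00000037984.9, chr6:55677822-55681263, reverse strand), had promoter values of 2.43 and 1.36, a mean of 1.90 ± 0.756 (SD, n = 2). Replicate 1 was higher by a ratio of 1.79, inside the range of 0.621 to 2.16 that holds the middle 95% of genes. The peak covered the TSS and the start of the transcript, with 2 footprints in each library. This was the sparsest locus of the 3 Neurod genes, with 8 and 4 peaks and 2 shared distal peaks. The stronger of these was at -36.2 kb and even between libraries, at 0.929 and 0.918. The Neurod E-box in its 5′ untranslated exon lay 127 bp downstream of the TSS. It was partly inside a 24 bp footprint in replicate 1 and a 7 bp footprint in replicate 2, and wholly inside with their added 5 bp.

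**Figure D2:**
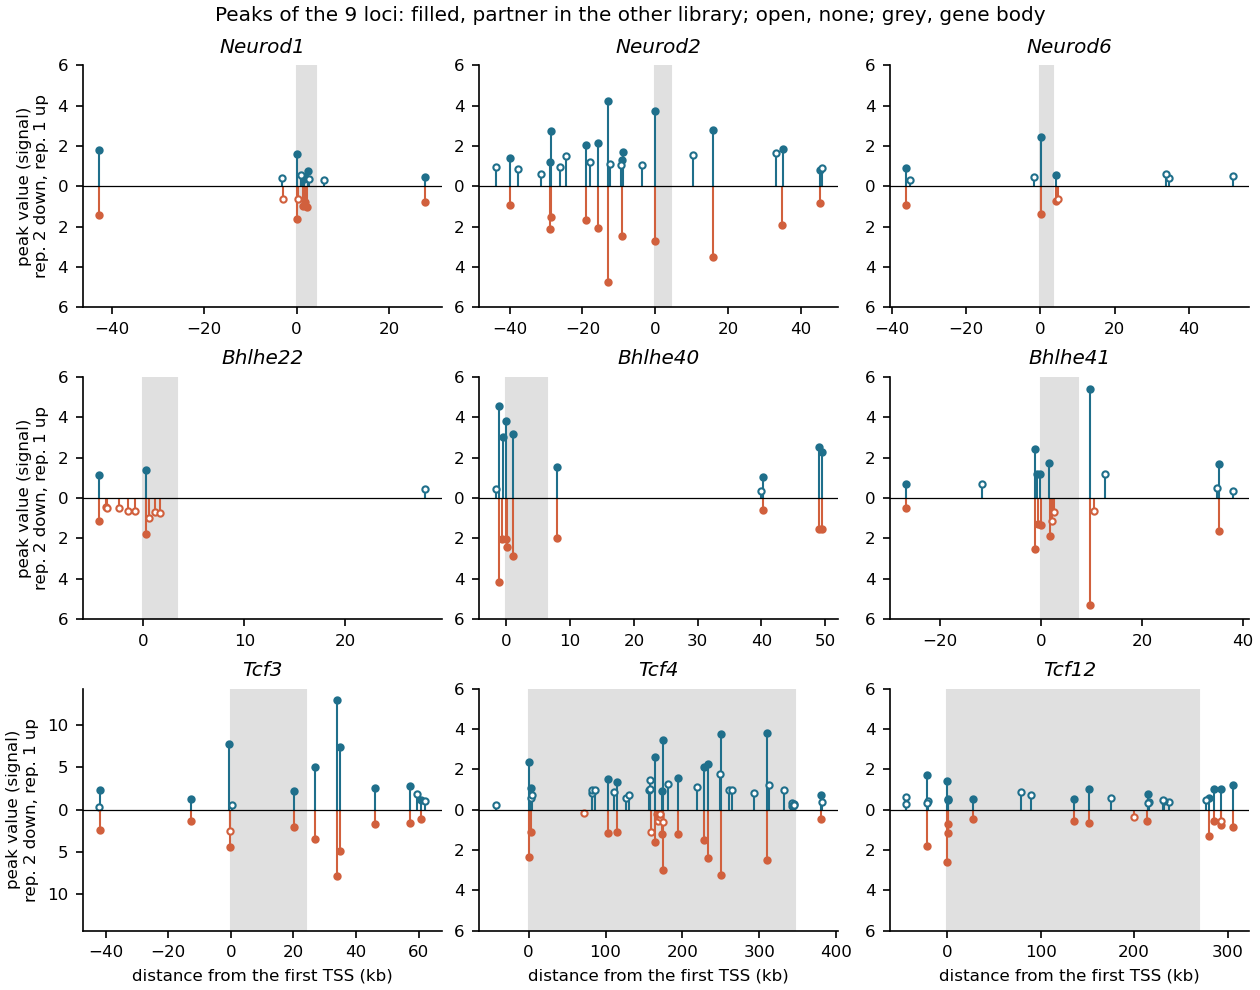
Value of every peak (deposited signal units, vertical axis) against distance from the gene's first TSS in kb (horizontal axis, downstream to the right) in the 9 loci, with replicate 1 drawn upward and replicate 2 downward. Filled points have a partner in the other library and open points none; the Tcf3 panel has a larger scale because it holds the Mbd3 promoter at 13.0 and 7.87. The shared sites at -13.1 kb of Neurod2 and 9.45 kb of Bhlhe41 rise above those genes' promoters.

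Bhlhe22 (ENSMUSG00000025128.7, chr3:18054174-18057517, forward strand) had promoter values of 1.37 and 1.77, a mean of 1.57 ± 0.286 (SD, n = 2), higher in replicate 2. Its TSS peak was wide, 520 and 600 bp, with 6 footprints in each library. The locus went against the library totals: 3 peaks covering 0.775 kb in replicate 1 and 10 covering 1.93 kb in replicate 2. The extra replicate 2 peaks were weak, from 0.433 to 1.01, and lay between -3.76 kb and 1.67 kb of the TSS. Only 1 distal peak was shared, at -4.39 kb with 1.15 and 1.11. No E-box lay in footprints of both libraries; a CATATG in a footprint centred 23 bp before the TSS was seen in replicate 2 alone.

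Bhlhe40, the repressor also known as Dec1 (ENSMUSG00000030103.11, chr6:108660629-108666925, forward strand), had the highest promoter value of the 3 Bhlhe genes, at 4.55 and 4.18 with a mean of 4.36 ± 0.259 (SD, n = 2). That value belongs to a peak centred at -1.14 kb and -1.15 kb from the TSS, which reaches into the promoter window. The peak nearest the TSS had 3.83 and 2.40, and further peaks at -0.559 kb (3.03 and 2.02) and at 0.816 kb (3.17 and 2.86) made up an accessible stretch with 20 footprints in replicate 1 and 7 in replicate 2. The 7 of replicate 2 lay in the outer peaks, 4 at -1.15 kb and 3 at 0.776 kb. Its peaks between these held no footprint, while those of replicate 1 held 5 and 4. An antisense noncoding gene, 0610040F04Rik, starts at this promoter, and Gm17055 ends upstream of it, so these peaks are shared with them. The CACGTG at -1.18 kb, the E-box that Bhlhe40 itself prefers, lay in footprints of 7 and 10 bp in the strongest peak. Of its distal peaks 4 were shared, the strongest 48.8 kb downstream at 2.54 and 1.54, next to another at 49.2 kb with 2.29 and 1.55. All 9 replicate 2 peaks had a replicate 1 partner.

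Bhlhe41, or Dec2 (ENSMUSG00000030256.11, chr6:145858243-145865558, reverse strand), had the lowest promoter value of the 9 genes in each library, at 1.18 and 1.33, a mean of 1.26 ± 0.103 (SD, n = 2). A 220 bp site 9.45 kb downstream of the TSS, past the end of the gene, reached 5.39 and 5.31, a mean of 5.35 ± 0.0567 (SD, n = 2). Its borders were the same in both libraries, and 97.2% and 97.8% of all peaks had a lower value. Just outside the promoter window, a peak at -1.21 kb had 2.43 and 2.51, also above the promoter in both. Of its distal peaks 5 were shared, among them one inside the gene at 1.42 kb (1.72 and 1.90). That peak holds a Neurod E-box in a stretch annotated as untranslated, within footprints of both libraries only with their added 5 bp. The strong site is printed whole because it holds 3 E-boxes and the highest distal value of the 9 loci, forward strand, E-boxes in capitals.
Bhlhe41 distal peak (chr6:145855741-145855960): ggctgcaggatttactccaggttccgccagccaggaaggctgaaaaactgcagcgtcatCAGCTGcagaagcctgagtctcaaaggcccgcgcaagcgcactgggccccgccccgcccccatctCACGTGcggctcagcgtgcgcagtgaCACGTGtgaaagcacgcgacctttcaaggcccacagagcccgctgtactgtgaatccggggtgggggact
It holds 1 CAGCTG and 2 CACGTG. The first CACGTG lay wholly in footprints of both libraries, of 33 and 28 bp. The CAGCTG lay at the edge of footprints of 25 and 29 bp, and within them only with their added 5 bp. Of replicate 1 peaks of 200 to 260 bp, 19.8% held a CAGCTG and 5.24% a CACGTG, and 75.3% held an E-box of any kind.

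Tcf3, the E2A gene (ENSMUSG00000020167.14, chr10:80409514-80433647, reverse strand), had the highest promoter value of the 9 genes, at 7.81 and 4.36, a mean of 6.09 ± 2.44 (SD, n = 2). Among genes with a promoter peak 87.2% and 77.1% had less, so its rank was high in both libraries while the values were 1.79 times apart. The peak sat upstream, centred at -453 bp and -433 bp from the TSS. Of 3 TSS groups (TSSs within 1 kb of each other), the first had peaks and the groups 2.57 kb and 11.8 kb further into the gene had none in either library. In its locus 5 distal peaks were shared; the highest by mean was at -41.8 kb at 2.33 and 2.35, and an intronic one at 8.49 kb had 2.20 and 1.98. The locus includes the promoters of Mbd3, at 13.0 and 7.87, Uqcr11, at 5.01 and 3.43, and Mex3d, at 2.61 and 1.71.

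Tcf12, the HEB gene (ENSMUSG00000032228.16, chr9:71842688-72111871, reverse strand), was the gene whose libraries differed most against the general trend. Its promoter value was 1.41 in replicate 1 and 2.57 in replicate 2, a mean of 1.99 ± 0.823 (SD, n = 2). The ratio of 0.547 lay below the 2.5th percentile of all genes, 0.621. The ratio was also under 1 for Neurod1, Bhlhe22 and Bhlhe41, as for 26.3% of all genes. All 3 shared promoter peaks of Tcf12 were higher in replicate 2, the other two being 0.548 and 1.16 near the second start of that group and 0.460 and 0.691 a little further into the gene. Of its 4 TSS groups, the first was accessible in both libraries, groups 2 and 3 in neither, and group 4, 215 kb inside the gene, in replicate 1 alone at 0.407. Its 9 shared distal peaks were modest; the strongest, at -21.3 kb, had 1.72 and 1.81.

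Tcf4, the E2-2 gene, is the longest of the 9 (ENSMUSG00000053477.17, chr18:69343356-69689079, forward strand, 345.7 kb) and has 10 TSS groups. Its most accessible start was internal. Group 8, 249.6 kb from the first TSS, had 3.77 and 3.25, a mean of 3.51 ± 0.365 (SD, n = 2). The first group had 2.36 in both libraries (SD 0.00129, n = 2), and the second, 2.36 kb on, had 1.06 and 1.09. Groups 4 and 5, at 156.0 and 157.3 kb, had peaks in replicate 1 alone, of 0.955 and 1.47. The other 5 groups, 3, 6, 7, 9 and 10, had no peak in either library. In group 8 a CATATG lay in footprints of 11 and 12 bp at an annotated start. In all 10 distal peaks were shared, against a median of 8 among the 439 genes of like locus length. Most were intronic; the strongest by mean, -1.98 kb from TSS group 6, had 3.46 and 2.99, and one 41.3 kb past TSS group 10 had 3.82 and 2.51. The intronic peak at 7.02 kb from group 5, with 2.64 and 1.61, held a CATGTG. This E-box lay in footprints of both libraries, counted with their added 5 bp, whose union also held a CTCF core beside it. Many Tcf4 peaks were not shared: 13 of 40 in replicate 1 and 13 of 24 in replicate 2 had a partner.

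Over all 9 genes, 11 of 23 TSS groups had overlapping peaks of both libraries, and 43.0% of the 32526 groups of all protein-coding genes did. The 6 genes with 1 group each had it accessible in both; among the 17 groups of the 3 E proteins, 5 were.

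The loci held 48 shared distal peaks counted in replicate 1, or 47 counted in replicate 2, and each gene had at least 1, as did 79.0% of all protein-coding genes in loci drawn the same way. Counts ran from 1 at Bhlhe22 to 10 at Tcf4. Of locus peaks in replicate 1, 73 of 145, or 50.3% (95% Wilson interval 42.3 to 58.4), overlapped a peak of replicate 2, against 46.6% of all replicate 1 peaks. In the other direction 73 of 101, or 72.3% (62.9 to 80.1), had a partner, against 83.4% of all replicate 2 peaks. These intervals cover counting error only, and neighbouring peaks are not independent. The replicate 2 peaks without a partner were mostly in the Tcf4 and Bhlhe22 loci, with 11 and 8 of the 28. By class, replicate 1 had 27 peaks in promoters of the 9 genes, 9 in promoters of neighbours and 109 distal ones, and replicate 2 had 22, 8 and 71.

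Footprints in the loci numbered 279 in replicate 1 and 178 in replicate 2. They overlapped a footprint of the other library in 31.5% (26.4 to 37.2) and 51.1% (43.8 to 58.4) of cases, and 25.8% and 52.0% of all footprints did. E-boxes of any kind lay in 13.3% (9.78 to 17.7) and 12.4% (8.31 to 18.0) of locus footprints, beside 15.5% and 12.5% of all footprints. The Neurod E-box lay in 3.94% (2.22 to 6.92) and 2.25% (0.877 to 5.63), beside 5.32% and 4.00%. Both shares were below the genome's, which lay inside both intervals, but that direction depends on the flank. In gene bodies alone the shares were 6.86% (3.36 to 13.5) and 4.55% (1.56 to 12.5), above the genome's, and with flanks of 10 kb they were 5.59% and 2.73%. The gene bodies hold 7 and 3 such footprints, so no difference from the genome was detectable in either direction. For CACGTG the shares were 2.15% (0.989 to 4.61) and 1.69% (0.575 to 4.84), beside 0.720% in each library; these are 6 and 3 footprints, and the genome's share lay below the interval in replicate 1 and inside it in replicate 2. CAGGTG was held by 2.15% and 2.81%, beside 1.68% and 1.93%. E-boxes of other middles lay in 2.15% (0.989 to 4.61) and 2.25% (0.877 to 5.63), beside 4.89% and 3.61%. For these the genome's share lay above the interval in replicate 1 and inside it in replicate 2.

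**Figure D3:**
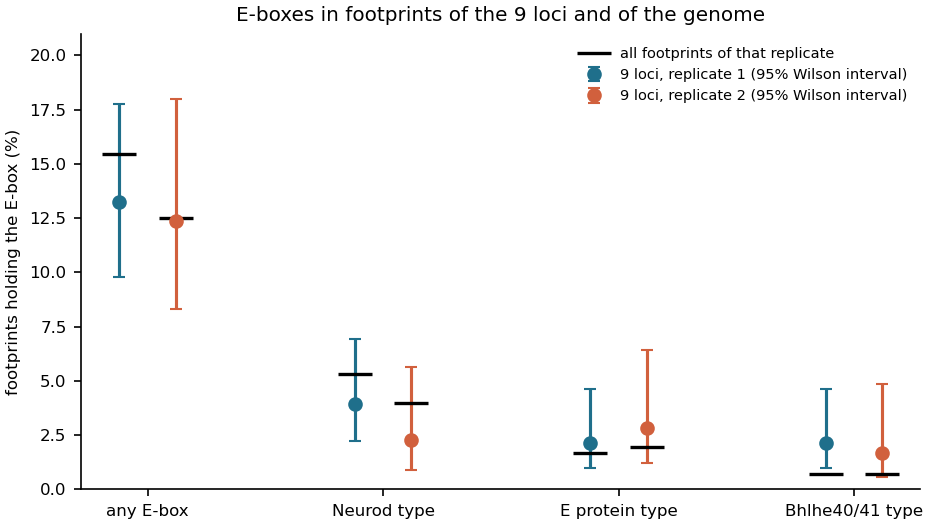
Share of footprints (percent, vertical axis) that hold an E-box of any kind, the Neurod type (CAGATG), the E protein type (CAGGTG) or the Bhlhe40/41 type (CACGTG). Points are the 9 loci with 95% Wilson intervals (279 and 178 footprints), and black bars are all footprints of that library; the Neurod type sits at 3.94% and 2.25%, under the bars at 5.32% and 4.00%.

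In the promoter windows themselves (250 bases before to 50 after the outermost TSS of the first group), 8 of 9 genes had an E-box, all but Tcf4, as had 72.7% of the windows of all TSS groups. CAGATG was in 4 of 9 windows, those of Neurod1, Neurod2, Bhlhe22 and Tcf12, and in 17.1% of all windows. CATATG, another site of proneural factors, was in 3 of 9, those of Neurod1, Neurod2 and Bhlhe22, and in 3.95% of all. The windows of all 23 groups held CAGATG in 11 cases. The CpG content (observed over expected) of the first windows ran from 0.164 at Tcf4 to 1.02 at Tcf12, around a median of 0.537 over all genes. At Tcf4 the outermost TSS lay 905 bp from the nearest peak in both libraries, so its window describes sequence outside the accessible site. The promoter sequences from RefSeq matched 6 of the 9 genes, by 8 entries, and not Bhlhe22, Bhlhe40 or Tcf4.

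The rest of the bHLH class was listed by role. Of 19 other bHLH genes listed together as proneural and neuronal, 7 had promoter peaks in both libraries and 7 in neither. That list is broad, and not all of its genes, Lyl1 among them, are neuronal factors. The highest by mean were Olig1, an oligodendrocyte lineage factor, at 1.56 and 1.33, and Atoh7, a retinal factor, at 1.19 and 1.42, although Olig2 was higher than either in replicate 1, at 1.64 against 0.753 in replicate 2; Bhlhe23 and Lyl1 had none. All 4 Id genes, whose products bind E proteins and keep them from DNA, had peaks in both, led by mean by Id2 at 8.29 and 5.48 and Id1 at 4.72 and 3.42, with Id4 next at 4.77 and 3.04. Of 6 Hes and Hey genes, most of which code for repressors downstream of Notch, 5 had peaks in both. They were led by Hey2 at 6.82 and 4.86 and Hey1 at 4.74 and 4.61, and Heyl had no peak. Of 15 bHLH genes of other tissues, 5 had weak peaks in both, up to Mesp2 at 0.946 and 0.970 and Msc at 0.725 and 0.846, and 9, including Hand1 and Hand2, had none in either. Together, 21 of 44 had promoter peaks in both libraries and 20 of 44 by overlapping peaks, the exception being Mesp1. Among all protein-coding genes the shares were 59.0% and 58.5%.

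**Figure D4:**
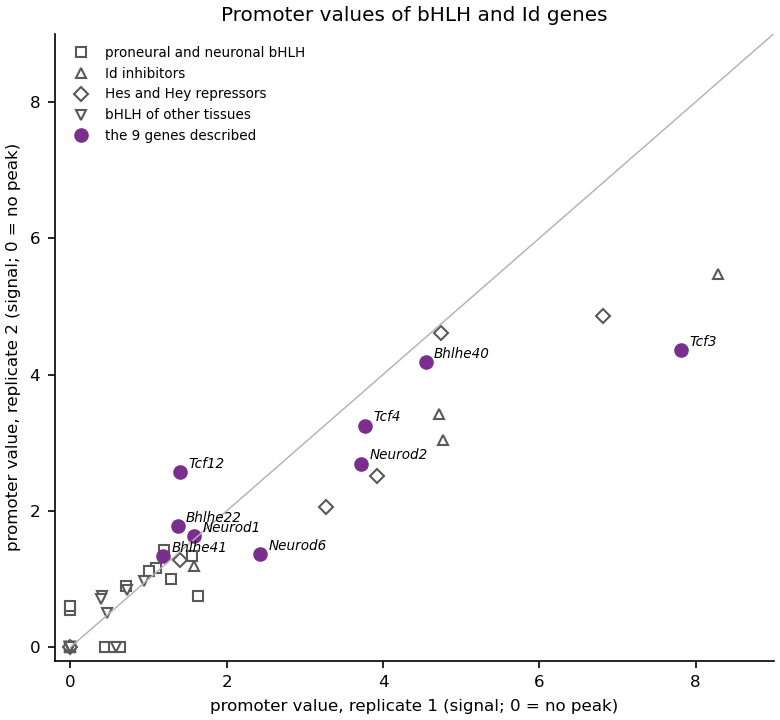
Promoter value in replicate 2 against replicate 1 (deposited signal units, 0 where no peak was listed; the line marks equal values) for the 9 genes and 44 other bHLH and Id genes. Tcf3 at 7.81 and 4.36 lies near Id2 at 8.29 and 5.48, and Tcf12 at 1.41 and 2.57 lies farthest above the line.

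Markers of cell types were read by the same promoter rule. By that rule, the accessible share of all protein-coding genes was 59.0% for both libraries, 63.4% for replicate 1 and 60.4% for replicate 2. Each marker list holds only 2 to 4 genes, and a difference from these shares was not tested. The excitatory neuron markers were accessible in both libraries in 4 of 4 cases, of which 1 is Neurod6 itself and another is Camk2a at 3.97 and 3.14, as were 3 of 3 for dentate granule cells, 2 of 2 for CA1 and 2 of 2 for CA3 and CA2. Of the 4 GABAergic markers 1 was, Gad1. In both libraries 1 of 4 astrocyte, 1 of 4 oligodendrocyte, 0 of 4 microglial and 0 of 3 endothelial markers were accessible; in replicate 1 the counts were 3, 3, 3 and 1. Replicate 1 thus listed more glial promoters, and the part of this in the library differences of the 9 genes was not tested. In bulk tissue, fewer cells of a type and less accessibility per cell cannot be told apart.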

How the data were processed

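DNase-seq peaks and footprints of 2 libraries of 1 group were deposited by the authors for each library, with mm10 named as the assembly per the labels. Which aligner and callers made them is not given in the sources used, nor is the treatment of CAST/EiJ alleles, whose reads were placed on a C57BL/6J assembly. The peak value is a signal the authors deposited; all values below 1 (100% within 0.05 steps) were multiples of a step particular to the library, so they are scaled to the library. The deposited base lists hold FDR values (q-values) under 0.05, used here to describe peaks, and the deposited footprint p-value column was 0.01 on every line and not used.

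Annotation was GENCODE M21, and sequence was RefSeq GRCm38.p6. The longer peak list was used. A gene's promoter value is its highest peak value within 1 kb of a protein-coding TSS, and a partner overlaps by at least 1 bp. Genes of like locus length had loci of 0.8 to 1.25 times that length. E-boxes were searched in footprints extended by 5 bp. With 2 libraries of 1 group no test was run; values stand per library with mean and SD, and shares carry 95% Wilson intervals. Read depth is unknown, so no interval is given on a peak value. The members, the gene lists and the rule for named genes (all 9 genes and their TSS groups, the strongest shared and unshared distal peak of each, and in each list the 2 highest and the first 2 in alphabetical order with no peak) were chosen with earlier results of these data known. Other peaks named, and the CTCF, cyclic AMP response element and GC box searches, were chosen after their values or letters were seen. Alternatives were the shorter peak lists, flanks of 0 and 10 kb, promoter windows of 500 bp or 2.5 kb, equal peak numbers, a reciprocal overlap of 50%, extensions of 0 and 10 bp and each library left out. On simulated data, peaks of which 59.0% had a planted partner gave 59.0%. Python 3.11.15, NumPy 2.4.6, pandas 2.3.3, SciPy 1.17.1 and matplotlib 3.10.9 were used.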

Additional observations from a re-analysis of the deposited data

How the results depend on the processing

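Of 60 alternative values, 42 stayed within the limits set and 18 moved. All 9 genes kept a promoter peak in both libraries under every alternative that compared the 2 libraries. Under these, the accessible TSS groups ran from 10 to 13, and the other bHLH and Id genes from 14 to 21. With a library left out, peaks of the other library alone were counted. Replicate 2 alone gave 9 genes, 11 TSS groups and 23 other genes, and replicate 1 alone gave 9, 14 and 25. Neither these counts nor the window of 2.5 kb could lower the 9. The share of replicate 1 locus peaks with a partner was 35.9% at a reciprocal overlap of 50% and 64.6% with equal numbers of peaks. The share for replicate 2 was 62.0% with flanks of 10 kb and 51.5% at the reciprocal overlap. Footprint overlap inside gene bodies was 25.5% (18.0 to 34.7) and 37.9% (27.1 to 49.9), beside 25.8% and 52.0% of all footprints. The genome's share thus lay inside the interval in replicate 1 and above it in replicate 2. At the reciprocal overlap the locus shares were 22.2% and 34.8%. With no extension, E-boxes were in 6.09% and 4.49% of footprints and Neurod E-boxes in 2.15% and 0.562%; with 10 bp the replicate 1 share of E-boxes was 19.0%. In gene bodies the Neurod E-box shares were 6.86% and 4.55%, above those of all footprints. Shared distal peaks numbered 23 in the shorter lists, 25 with flanks of 10 kb, 18 in gene bodies, 30 at the reciprocal overlap, and 71 to 109 distal peaks in all when a library was left out. These counts move with the definitions; no other cause was tested. No paired analysis was possible because there was only 1 group. Depth is unknown, so absence of a peak in replicate 2 is absence from a shorter list.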

Other observations

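The Tcf4 gene holds 2 runs of weak peaks, each in 1 library alone. In replicate 1, 6 peaks lay within 3.35 kb of the last exon, all in untranslated sequence, with values of 0.186 to 0.327, under which lay 0.276% to 8.64% of all replicate 1 peaks. The lowest FDR among their bases was 3.10e-06, and 2 of the 6 were in the shorter list. In replicate 2, 8 peaks lay within 3.92 kb of an intron, with values of 0.196 to 0.578, under which lay 0.215% to 24.5% of all replicate 2 peaks, and a lowest FDR of 1.14e-11, and 3 were in the shorter list. None of the 14 had a partner in the other library. These peaks were singled out after their values were seen, and why they differ from the other peaks of the gene was not tested.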
